A study of Mus musculus with 8 samples.

Results

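The tumor necrosis factor (TNF) superfamily was measured in whole lung RNA of untreated mice with and without a lung-directed Scgb3a2 transgene. Its members were taken by name, as every probe annotated by the authors to Tnf itself or to a gene symbol that begins with Tnfsf, Tnfrsf or Tnfaip and a number. This rule used no measured value and gave 53 of the 41174 probes on the array, for 39 of 20920 gene symbols. They comprised 11 ligands (Tnf and the Tnfsf genes), 20 receptors (Tnfrsf) and 8 genes named for their induction by TNF or for their likeness to such a gene (Tnfaip). TNF ligands are trimeric proteins, mostly anchored in the membrane of the cell that makes them, and some are shed from it as soluble cytokines. They bind receptors that recruit TRAF adaptors and turn on NF-kappaB and the stress kinases, and the receptors with a death domain can also start caspase activation. In lung, alveolar macrophages, lymphocytes, endothelium and epithelium all make or respond to members of the family, and Tnf itself is a central cytokine of acute lung inflammation.

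The wild-type group was 4 C57BL/6 mice and the transgenic group was 4 mice of the same strain carrying a mouse Scgb3a2 coding sequence behind the human surfactant protein C (SP-C) promoter, which is active in alveolar type II cells. Scgb3a2 is a small secreted protein of airway epithelium. All were males aged 8 to 10 weeks by the labels, without treatment of any kind, and the transgenic animals came from 1 founder line, so an effect of the insertion site cannot be told apart from one of the transgene. On each of 8 Agilent arrays the RNA of 1 mouse was labeled with Cy5 and a pool of lung RNA with Cy3, with no array in the opposite orientation, and each of 4 slides carried 1 array per genotype. The slides were scanned on 2 days, which each held 2 arrays of either genotype. The array measures whole lung, so that fewer cells of a type and less RNA per cell cannot be told apart.

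Spots had a median signal of 204 to 277.5 in the Cy5 channel over a local background of 55.5 to 59, and 32257 to 34709 probes per array were well above background. Scgb3a2 itself had log2 ratios to the pool of 0.01, -0.39, 0.58 and -0.56 in the wild-type lungs and 1.26, 0.47, 0.70 and 0.74 in the transgenic lungs, in order of replicate number. The difference was 0.88 (standard error 0.24, unadjusted p = 0.00327 by limma), the highest wild-type mouse lay above the lowest transgenic mouse, and on each slide the transgenic array was the higher. All 7 alveolar type II, 4 alveolar type I and 5 airway epithelial markers on the array were well above background on all 8 arrays. With 4 mice a group, the array number sets the precision of what follows.

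The promoters of 4 members that the results return to are shown first, and no result between the genotypes rests on their sequence. Tnf is the founding ligand, Tnfaip3 encodes the A20 inhibitor that ends NF-kappaB signaling, Tnfrsf4 had the smallest p between the genotypes, and Tnfrsf12a varied most among the mice. Each is the 250 bases before the annotated start from RefSeq on GRCm38.p6 (Tnf chr17:35202008-35202257, minus strand; Tnfaip3 chr10:19015411-19015660, minus strand, the upstream one of its 2 starts; Tnfrsf4 chr4:156013445-156013694, plus strand; Tnfrsf12a chr17:23677450-23677699, minus strand). They are written 5′ to 3′ on the strand of the gene, and capitals mark matches to 3 motifs on either strand, namely the NF-kappaB consensus, the AP-1 motif TGANTCA and the TATA motif TATAAA.
Tnf: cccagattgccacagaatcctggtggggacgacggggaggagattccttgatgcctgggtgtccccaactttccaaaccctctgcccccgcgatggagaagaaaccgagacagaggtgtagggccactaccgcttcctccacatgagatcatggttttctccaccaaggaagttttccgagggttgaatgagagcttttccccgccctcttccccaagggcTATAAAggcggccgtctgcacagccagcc
Tnfaip3: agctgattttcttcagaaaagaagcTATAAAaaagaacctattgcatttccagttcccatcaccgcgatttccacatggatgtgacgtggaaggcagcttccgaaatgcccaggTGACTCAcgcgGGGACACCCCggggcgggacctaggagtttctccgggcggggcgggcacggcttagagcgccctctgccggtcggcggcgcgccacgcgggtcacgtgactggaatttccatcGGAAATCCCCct
Tnfrsf4: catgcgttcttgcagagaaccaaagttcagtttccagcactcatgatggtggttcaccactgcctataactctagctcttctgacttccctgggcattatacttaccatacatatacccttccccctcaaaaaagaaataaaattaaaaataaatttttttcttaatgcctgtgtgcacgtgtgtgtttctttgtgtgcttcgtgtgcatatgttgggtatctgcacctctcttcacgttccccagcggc
Tnfrsf12a: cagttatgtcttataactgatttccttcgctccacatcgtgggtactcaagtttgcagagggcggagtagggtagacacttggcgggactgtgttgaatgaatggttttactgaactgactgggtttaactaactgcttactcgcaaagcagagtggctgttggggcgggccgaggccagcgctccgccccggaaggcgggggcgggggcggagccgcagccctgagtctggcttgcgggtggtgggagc
The Tnf window held the TATA motif alone. The Tnfaip3 window held 2 matches to the NF-kappaB consensus, 1 to AP-1 and 1 to TATA, and none of these overlapped. The Tnfrsf4 and Tnfrsf12a windows held none of the 3 motifs, which says only that these letters are not in this window. Of the 39 genes 31 had an entry in the RefSeq table, with 36 windows, and Tnfaip8, Tnfrsf10b, Tnfrsf11b, Tnfrsf22, Tnfrsf26, Tnfsf12, Tnfsf4 and Tnfsf9 had none. The NF-kappaB consensus was found in 6 of the 36 windows (16.7%), against 7.25% of all 32851 windows of the same length. The counts were also 6 of 36 for AP-1, against 6.75% of all windows, and 6 of 36 for TATA, against 12.4%. The genes with the NF-kappaB consensus were Tnfaip2, Tnfaip3, Tnfaip8l1, Tnfrsf8, Tnfrsf9 and Tnfrsf25. A match of this kind is a description of the sequence and not a bound site.

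Most members were measurable in untreated lung. Of the 39 genes 35 were well above background on all 8 arrays by their brightest probe, including all 20 receptors, 8 of 11 ligands and 7 of 8 Tnfaip genes. Tnfsf4, which encodes the OX40 ligand of antigen-presenting cells and activated endothelium, was well above background on 0 arrays. Tnfsf18, the ligand of GITR, was above it on 3 arrays, Tnfaip6 on 6 and Tnfsf11 on 7. Tnfsf4 and Tnfsf18 were therefore not tested, which left 37 genes (9 ligands, 20 receptors and 8 Tnfaip genes) measured by 49 tested probes.

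No member passed the adjusted threshold between the genotypes, and 1 of 37 had an unadjusted p under 0.05 by limma. This was Tnfrsf4, which was higher in transgenic lungs. Over all 32645 tested probes, 1.12% were higher and 0.962% lower at an unadjusted p under 0.05, and 0% passed after adjustment. These were 365 higher and 314 lower of 679 probes, a balance that other scalings changed, to 123 higher of 552 with median-centring, 93 of 298 with the Cy5 channel alone and 135 of 390 with normexp fitted on all spots. A single member among 37 is near that background share. The methods' t-test, run on these ratios, also put 1 member, Tnfrsf4, under the unadjusted threshold and 0 after adjustment.

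**Figure D1:**
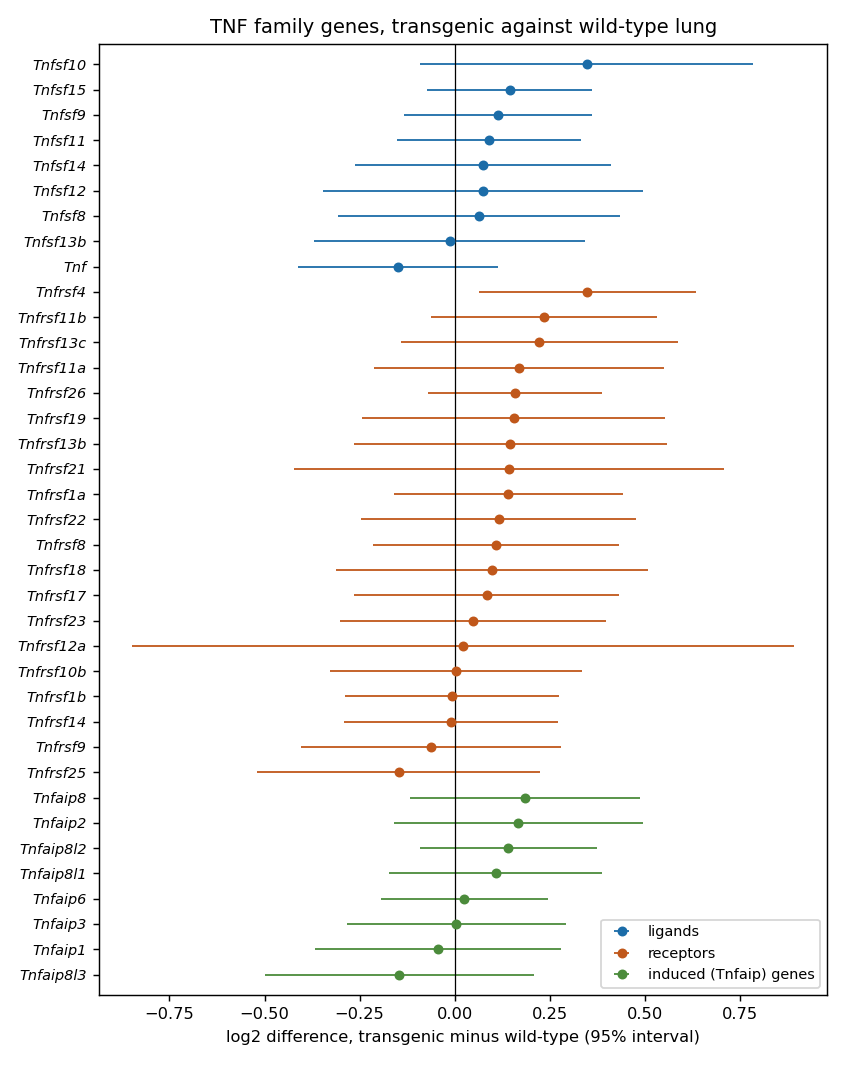
Difference between transgenic and wild-type lungs for the 37 tested genes, on the log2 scale, with ligands in blue, receptors in orange and Tnfaip genes in green, points for the estimate and bars for limma's 95% interval. The interval of Tnfrsf4, 0.06 to 0.63, is the 1 that leaves out 0, and that of Tnfrsf12a is the widest of the 37.

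The differences were small and leaned upward. They ran from -0.15 for Tnf to 0.35 for Tnfrsf4, with a median of 0.10 on the log2 scale against 0.00 over all tested probes. Of the 37 genes 29 (78.4%) had a higher mean in transgenic lungs, comprising 7 of 9 ligands, 16 of 20 receptors and 6 of 8 Tnfaip genes, where 50.4% of all tested probes did. The 8 with a lower mean were Tnf, Tnfsf13b, Tnfrsf1b, Tnfrsf9, Tnfrsf14, Tnfrsf25, Tnfaip1 and Tnfaip8l3. Transgenic replicate 1 held the highest value of the 8 arrays for 15 of the 34 genes with a value on every array (44.1%), against 22.7% of all tested probes. Wild-type replicate 3 held the lowest for 11 of the 34 (32.4%), against 16.1%. Without transgenic replicate 1, 23 of 37 genes (62.2%) had the higher mean in transgenic lungs, with a median of 0.06, and without wild-type replicate 1 it was 24 of 37 (64.9%). The count of members with the higher mean depended on the scaling, as did the share over all probes. With median-centring 24 of 37 were higher with a median of 0.05, with the Cy5 channel alone 22 of 37 with a median of 0.04, and with normexp fitted on all spots 25 of 37 with a median of 0.04, while the share over all probes was 37.1%, 39.3% and 47.6%. Above the median difference of all tested probes lay 29 of 37 members as reported and 26 with median-centring. The number was 28 with the Cy5 channel alone and 26 with normexp fitted on all spots. Members measured on the same 8 arrays are not independent of each other, and these counts carry no test.

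Tnfrsf4 encodes OX40, a costimulatory receptor of activated and regulatory T cells. Its log2 ratio to the pool was -0.06, -0.06, -0.16 and 0.02 in the wild-type lungs and 0.65, 0.22, 0.23 and 0.04 in the transgenic lungs, in order of replicate number. Every transgenic lung lay above every wild-type lung, and transgenic replicate 1 stood well above the other transgenic lungs. The difference was 0.35 (standard error 0.13, unadjusted p = 0.0206 by limma), a 1.27-fold higher level, with an adjusted p of 1 and an exact two-sided permutation p of 0.0286, the smallest that 4 against 4 mice allow. Over all tested probes, 1.08% had groups that did not overlap with transgenic higher and 0.901% with transgenic lower. On the 4 slides the transgenic array was higher by 0.21, 0.71, 0.27 and 0.21. The difference was 0.46 within the first scan day and 0.24 within the second, where the unadjusted p was 0.0987 and 0.0811 by limma with 2 arrays a group. Without transgenic replicate 1 it fell to 0.23 (unadjusted p = 0.0475), with normexp fitted on all spots to 0.21 (unadjusted p = 0.0415), and with median-centring to 0.26 (unadjusted p = 0.0762).

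The receptors of B cells gave no difference past the threshold, and as for Tnfrsf4 transgenic replicate 1 was the highest mouse by the brightest probe. Tnfrsf13c encodes the BAFF receptor of mature B cells, with log2 ratios of 0.11, -0.27, -0.31 and -0.19 in the wild-type lungs and 0.49, 0.17, -0.17 and -0.25 in the transgenic lungs. Tnfrsf13b encodes TACI, and its ratios were 0.31, -0.11, -0.16 and 0.36 in the wild-type lungs and 0.76, 0.25, 0.00 and -0.02 in the transgenic lungs. Tnfrsf17 encodes BCMA of plasma cells, at -0.14, -0.19, -0.43 and 0.05 in the wild-type lungs and 0.33, -0.22, -0.40 and -0.09 in the transgenic lungs. For all 3 the genotypes overlapped. Their differences were 0.22 (standard error 0.17, unadjusted p = 0.206 by limma) for Tnfrsf13c, 0.15 for Tnfrsf13b and 0.08 for Tnfrsf17. Tnfsf13b, which encodes BAFF, the survival cytokine that these receptors share, had ratios of -0.26, -0.38, 0.28 and -0.59 in the wild-type lungs and -0.25, -0.28, -0.33 and -0.13 in the transgenic lungs. Its difference was -0.01 (95% interval -0.37 to 0.34), and wild-type replicate 3 was the highest mouse by this probe. A second Tnfsf13b probe lay above the pool in every mouse, with transgenic replicate 1 the highest at 0.82. By that probe the difference was -0.08 (standard error 0.12, unadjusted p = 0.485 by limma). Tnfsf13, which encodes the related ligand APRIL, was not analysed here.

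Most lymphocyte markers also had a higher mean in transgenic lungs, and few passed the unadjusted threshold. All 8 B cell markers were well above background on every array, 7 of 8 had a higher mean in transgenic lungs, and their mean log2 ratio was 0.10, -0.15, -0.10 and 0.10 in the wild-type lungs and 0.65, 0.26, 0.02 and 0.00 in the transgenic lungs. Summed over the 8 genes it ran from -1.18 to 0.80 in wild-type and from -0.03 to 5.19 in transgenic lungs. Ms4a1, which encodes CD20, was the 1 B cell marker with an unadjusted p under 0.05, differing by 0.63 (standard error 0.25, unadjusted p = 0.0296 by limma), and 0 B or T cell markers passed after adjustment. Of 9 T cell markers 8 were well above background on every array and none was at background on all, and 8 of 9 had a higher mean in transgenic lungs. Their mean log2 ratio was -0.15, -0.18, -0.34 and 0.03 in the wild-type lungs and 0.30, 0.08, -0.11 and -0.25 in the transgenic lungs, and the sum over the 9 genes ran from -3.05 to 0.24 in wild-type and from -2.23 to 2.71 in transgenic lungs. Cd2, an adhesion receptor of T and NK cells, was the 1 T cell marker under it, differing by 0.31 (standard error 0.12, unadjusted p = 0.0229 by limma). With slide as a block, 3 of 8 B cell markers (Ms4a1 at an unadjusted p of 0.00144, Cd79a at 0.0202 and Cd79b at 0.0307) and 3 of 9 T cell markers (Cd2 at 0.014, Cd3d at 0.0177 and Lck at 0.0237) were under it, all higher, where 1.93% of all probes were higher and 1.78% lower in that fit by limma. Of 6 NK cell markers 4 had a higher mean in transgenic lungs and 0 had an unadjusted p under 0.05, and transgenic replicate 4 was the highest mouse by the mean of the 4 with a value on every array. Transgenic replicate 1 was the highest mouse for the B and the T cell lists, and both lists overlapped between the genotypes. That mouse was also the highest by the mean of the neutrophil list, at 0.85 with no other mouse above 0.28. The same held for the airway epithelial list, at 1.29 with no other mouse above 0.89. In each remaining marker list another mouse was the highest. The part of the B and T cell lists in the values of Tnfrsf4 and the B cell receptors was not tested.

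Markers of other cell types also passed the unadjusted threshold, in both directions. All 7 alveolar type II markers had a lower mean in transgenic lungs, with a median difference of -0.51. Among them were the surfactant protein genes Sftpa1 at -0.75 (standard error 0.29, unadjusted p = 0.0236 by limma) and Sftpd at -0.48 (standard error 0.16, unadjusted p = 0.0132 by limma). With slide as a block 4 of the 7 were under the unadjusted threshold by limma, where 1.78% of all probes were lower in that fit. These were Sftpa1 and Sftpd, with a value in every mouse, and Lamp3 and Slc34a2, with flagged spots left out. Lamp3 had a value in 2 wild-type and 3 transgenic mice and Slc34a2 in 3 of each. Some slides thus held 1 genotype alone for these genes, and their blocked results rest on few mice. Of 7 endothelial markers 5 had a higher mean, with Kdr, the VEGF receptor, at 0.63 (standard error 0.20, unadjusted p = 0.00979 by limma), while Tek, the angiopoietin receptor, was lower at -0.44 (standard error 0.14, unadjusted p = 0.0112 by limma). Siglec5, a lectin gene of the macrophage list, differed by 0.28 (standard error 0.10, unadjusted p = 0.0186 by limma), and 6 of the 8 macrophage markers had a lower mean. Of 6 adipose markers 5 had a lower and 1 a higher mean, and of 5 striated muscle markers 3 a lower and 2 a higher. Lower in transgenic lungs were Adipoq, the adipocyte hormone adiponectin, at -0.89 (standard error 0.25, unadjusted p = 0.00483 by limma), the muscle creatine kinase gene Ckm at -0.45 (standard error 0.15, unadjusted p = 0.0138 by limma) and the cardiac myosin gene Myh6 at -0.62 (standard error 0.21, unadjusted p = 0.0136 by limma). None of these genes passed after adjustment, and the part of these cell types in the members' values was not tested.

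**Figure D2:**
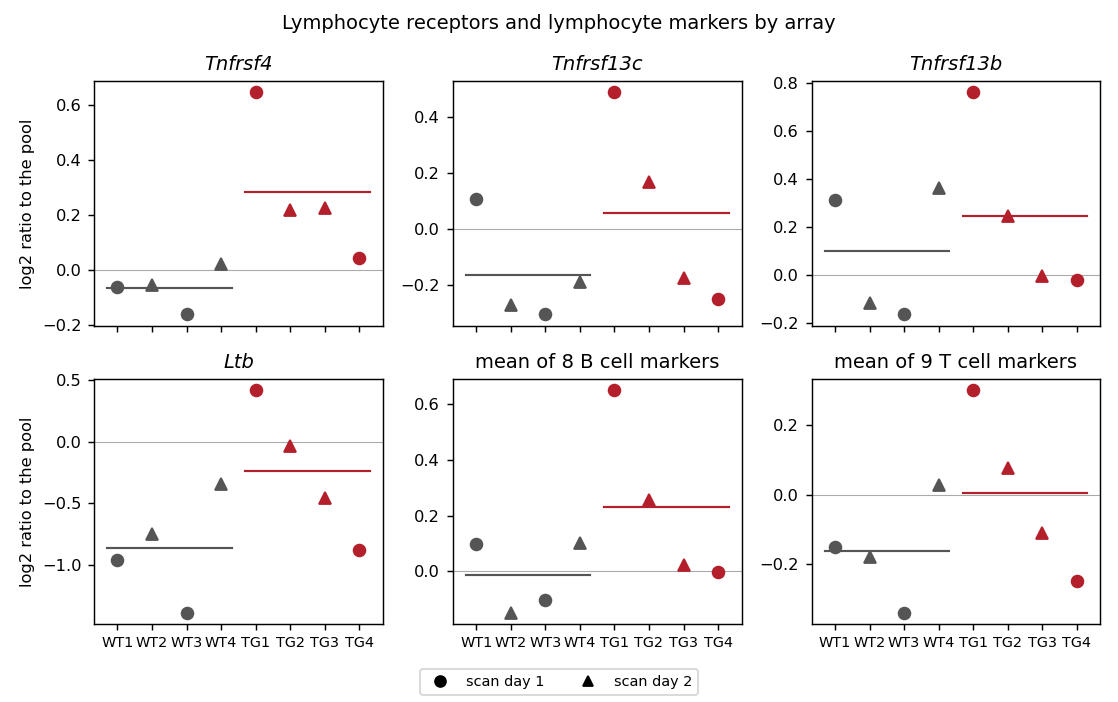
Log2 ratio to the pool on each array for Tnfrsf4, Tnfrsf13c, Tnfrsf13b and Ltb and for the mean of the B and T cell marker lists, with wild-type mice (WT) in gray, transgenic mice (TG) in red, lines for group means, circles for the first scan day and triangles for the second. TG1 is the highest mouse in all 6 panels, and in the Tnfrsf4 panel no TG mouse lies below a WT mouse.

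The other T cell costimulatory receptors gave no difference past the threshold. Tnfrsf9, which encodes 4-1BB, had ratios of 0.58 ± 0.20 (SD, n = 4) among wild-type mice and 0.52 ± 0.30 (SD, n = 4) among transgenic mice and a difference of -0.06 (95% interval -0.40 to 0.28). Tnfrsf18 encodes GITR of regulatory T cells, and its values were 0.39 ± 0.38 (SD, n = 4) among wild-type mice and 0.49 ± 0.07 (SD, n = 3) among transgenic mice, with 1 flagged transgenic spot left out. Its difference was 0.10 (95% interval -0.31 to 0.51). Tnfrsf8, which encodes CD30, differed by 0.11 (95% interval -0.21 to 0.43). Tnfrsf14, the herpesvirus entry mediator that binds LIGHT, differed by -0.01 (95% interval -0.29 to 0.27), and Tnfrsf25, the death receptor that binds TL1A, by -0.15 (95% interval -0.52 to 0.22). Whether these 5 receptors differed from Tnfrsf4 was not tested.

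Their ligands gave no difference past the threshold either. Tnfsf8, the ligand of CD30, had a log2 ratio of -0.50 ± 0.26 (SD, n = 4) among wild-type mice and -0.43 ± 0.30 (SD, n = 4) among transgenic mice, and Tnfsf9, the ligand of 4-1BB, of -0.30 ± 0.10 (SD, n = 4) among wild-type mice and -0.18 ± 0.18 (SD, n = 4) among transgenic mice. Tnfsf14, which encodes LIGHT, was at -0.25 ± 0.27 (SD, n = 4) among wild-type mice and -0.17 ± 0.23 (SD, n = 4) among transgenic mice. Tnfsf15, which encodes the endothelial cytokine TL1A, had ratios of -0.07, -0.15, -0.11 and 0.09 in the wild-type lungs and 0.20, 0.01, 0.02 and 0.10 in the transgenic lungs. All transgenic mice were above 0 and 3 of 4 wild-type mice below it, with a difference of 0.14 (standard error 0.10, unadjusted p = 0.174 by limma).

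Tnf and its receptors gave no difference past the threshold. Tnf had log2 ratios of 0.37, -0.04, -0.06 and 0.08 in the wild-type lungs and 0.05, 0.02, -0.21 and -0.11 in the transgenic lungs. Wild-type replicate 1 was the highest mouse, transgenic replicate 3 the lowest, and the groups overlapped. The difference was -0.15 (standard error 0.12, unadjusted p = 0.241 by limma), with an exact permutation p of 0.286 and a 95% interval of -0.41 to 0.11. Without wild-type replicate 1 it was -0.06. Tnfrsf1a encodes the widely expressed death-domain receptor TNFR1, with ratios of -0.02, -0.21, -0.48 and 0.09 in the wild-type lungs and -0.13, 0.07, 0.16 and -0.17 in the transgenic lungs. Tnfrsf1b, TNFR2 of leukocytes and endothelium, was at -0.31, -0.40, -0.18 and -0.35 in the wild-type lungs and 0.05, -0.37, -0.50 and -0.44 in the transgenic lungs. Their differences were 0.14 (95% interval -0.16 to 0.44) and -0.01 (95% interval -0.29 to 0.28). For both the groups overlapped.

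Tnfsf10 had the second largest difference of the 37 tested genes, and it depended on single mice. It encodes TRAIL, a ligand that can start apoptosis and is induced by interferons. Its log2 ratios were -0.26, -0.09, -0.87 and 0.29 in the wild-type lungs and 0.18, 0.03, 0.02 and 0.23 in the transgenic lungs. The transgenic mice lay close together, while the wild-type mice spread from far below the pool in replicate 3 to above every transgenic mouse in replicate 4. The difference was 0.35 (standard error 0.20, unadjusted p = 0.109 by limma). Without wild-type replicate 4 it was 0.52 (unadjusted p = 0.0139), and without wild-type replicate 3 it was 0.14 (unadjusted p = 0.359). It was 0.77 within the first scan day and -0.08 within the second. Tnfrsf10b, the mouse TRAIL receptor with a death domain, differed by 0.00 (95% interval -0.33 to 0.34). The related receptors Tnfrsf22, Tnfrsf23 and Tnfrsf26 differed by 0.12, 0.05 and 0.16. Tnfrsf26 had ratios of 0.27, 0.14, 0.31 and 0.36 in the wild-type lungs and 0.59, 0.27, 0.41 and 0.45 in the transgenic lungs, above the pool on all 8 arrays, with an unadjusted p of 0.158 by limma. Its difference depended on the scaling, at 0.34 (unadjusted p = 0.0376) with the processed signals, 0.01 with the Cy5 channel alone and -0.02 with normexp fitted on all spots.

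Osteoprotegerin, a secreted decoy receptor for both TRAIL and RANKL encoded by Tnfrsf11b, was below the pool in every mouse. Its log2 ratios were -0.75, -1.01, -1.26 and -0.76 in the wild-type lungs and -0.70, -0.62, -0.57 and -0.93 in the transgenic lungs. Of the transgenic mice 3 lay above every wild-type mouse, and on each slide the transgenic array lay above the wild-type array, by 0.33, 0.04, 0.39 and 0.19. The difference was 0.23 (standard error 0.14, unadjusted p = 0.111 by limma). A fit with slide as a blocking term gave an unadjusted p of 0.0437 by limma for it, and with the processed signals the difference was 0.38 (unadjusted p = 0.0437 by limma). Of 23 alternatives 4 put it under the unadjusted threshold and 19 did not, and the difference ran from 0.13 to 0.38 over them. Tnfsf11, which encodes RANKL, differed by 0.09 (95% interval -0.15 to 0.33), and Tnfrsf11a, its receptor RANK, by 0.17 (95% interval -0.21 to 0.55) with 1 wild-type spot flagged and left out.

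Tnfrsf12a varied more between mice than any other member, and along scan day rather than genotype. It encodes Fn14, the receptor of TWEAK, which is induced in injured epithelium and fibroblasts. Its log2 ratios were -2.06, -0.79, -1.60 and -0.68 in the wild-type lungs and -2.37, -0.75, -0.51 and -1.41 in the transgenic lungs. Every mouse lay below the pool, and the 4 mice of the first scan day (wild-type replicates 1 and 3, transgenic replicates 1 and 4) all lay below the 4 of the second. The means were -1.86 ± 0.43 (SD, n = 4) and -0.68 ± 0.13 (SD, n = 4). With genotype in the model the second day was higher by 1.18 (standard error 0.19, unadjusted p = 0.00011, adjusted p = 0.227 by limma). The genotypes differed by -0.06 within the first day and by 0.11 within the second, and by 0.02 over both (95% interval -0.85 to 0.89). Its ligand Tnfsf12, which encodes TWEAK, had ratios of -0.18, -0.13, 0.39 and 0.13 in the wild-type lungs and -0.35, 0.04, 0.21 and 0.60 in the transgenic lungs and did not follow the scan day (day difference -0.05).

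Scan day moved other members by less. By their brightest probe 4 of the 37 genes had an unadjusted p under 0.05 for the day, namely Tnfrsf12a, Tnfaip3, Tnfrsf25 and Tnfsf9. After adjustment 0 passed. Over all 32588 probes in that fit 10.4% were under the unadjusted threshold, a share close to that of these 37 genes. Of the 49 tested probes of the members 9 were under it, a larger share. The further ones were second probes of Tnfrsf10b, Tnfrsf11a, Tnfrsf13b and Tnfrsf9. A Tnfrsf10b probe had a day difference of 0.49 (unadjusted p = 0.000857 by limma). Tnfaip3 had log2 ratios of -0.16, 0.15, -0.22 and 0.00 in the wild-type lungs and -0.26, 0.07, 0.19 and -0.21 in the transgenic lungs. The 4 mice of the first day were again the 4 lowest, with a day difference of 0.32 (unadjusted p = 0.00644 by limma) and a genotype difference of 0.00. The day difference was 0.22 for Tnfsf9 and -0.36 for Tnfrsf25. The labels do not say what else differed between the days, so scan day and whatever went with it cannot be told apart.

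**Figure D3:**
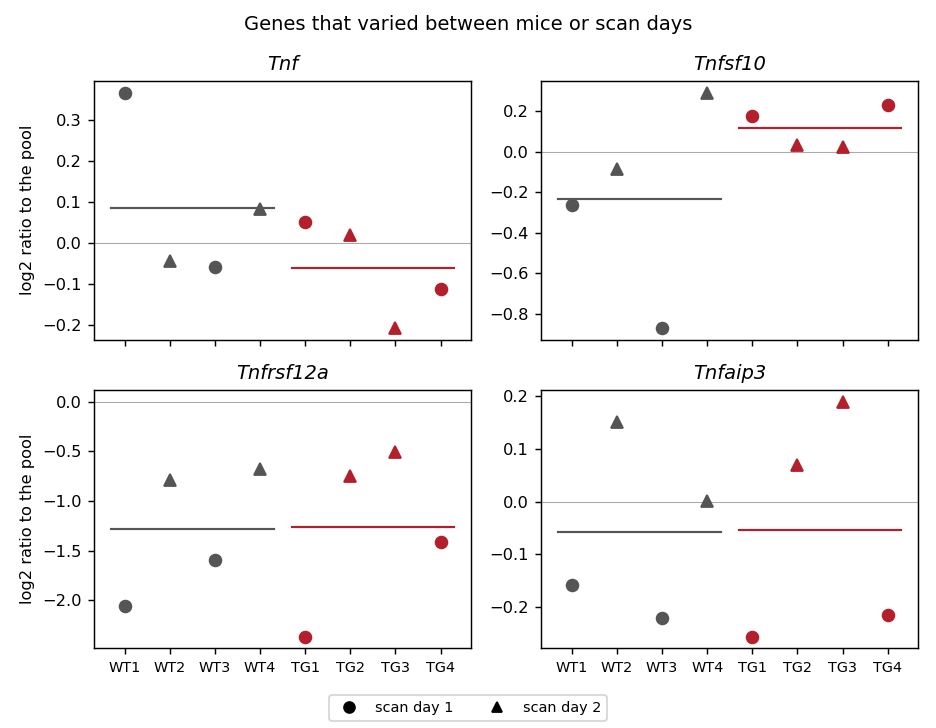
Log2 ratio to the pool on each array for Tnf, Tnfsf10, Tnfrsf12a and Tnfaip3, with wild-type mice (WT) in gray, transgenic mice (TG) in red, lines for group means, circles for the first scan day and triangles for the second. For Tnfrsf12a and Tnfaip3 all circles lie below all triangles in either genotype, while for Tnf and Tnfsf10 the days are mixed.

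Tnfrsf21 had the second largest spread between mice among the 37 genes, and its probes went different ways. It encodes death receptor 6. By its brightest probe the log2 ratios were 0.09, 0.81, 0.38 and 0.30 in the wild-type lungs and 1.35, 0.24, 0.58 and -0.01 in the transgenic lungs, with transgenic replicate 1 far above the others and transgenic replicate 4 the lowest. The difference was 0.14 (standard error 0.26, unadjusted p = 0.589 by limma), while another probe of the gene gave -0.21 (standard error 0.15, unadjusted p = 0.189) with transgenic replicate 1 at -0.77, the lowest of its 8 arrays. The probes of Tnfrsf11a also differed in sign, at 0.17 and -0.14. Tnfrsf19, an orphan receptor of epithelium, had a value in 2 wild-type and 3 transgenic mice alone by its brightest probe, with a difference of 0.16, and 0.10 by a second probe with all 8 values. Over the 37 genes the median spread within genotype was a standard deviation of 0.24, against 0.18 over all tested probes.

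The Tnfaip genes lay below the pool as a group, in either genotype. Tnfaip2 is an endothelial and myeloid gene induced by TNF, and its log2 ratios were -0.68, -0.69, -0.55 and -0.61 in the wild-type lungs and -0.30, -0.11, -0.59 and -0.86 in the transgenic lungs. Tnfaip8, an inhibitor of apoptosis, was at -0.82, -0.52, -0.48 and -0.65 in the wild-type lungs and -0.26, -0.26, -0.41 and -0.80 in the transgenic lungs. Both were below the pool in all 8 mice and higher on average in transgenic lungs, by 0.17 (standard error 0.15, unadjusted p = 0.285 by limma) and 0.19 (standard error 0.14, unadjusted p = 0.205 by limma). Without transgenic replicate 4, the lowest transgenic mouse for both, the differences were 0.30 (unadjusted p = 0.0426 by limma) and 0.31 (unadjusted p = 0.0257 by limma). That was the 1 of 23 alternatives that put either gene under the unadjusted threshold. Over the 23 the difference ran from 0.03 to 0.30 for Tnfaip2 and from 0.04 to 0.31 for Tnfaip8. Tnfaip6, which encodes the hyaluronan-binding protein TSG-6, had log2 ratios of -0.18, 0.10, -0.08 and -0.07 in the wild-type lungs and -0.05, -0.10, 0.09 and -0.07 in the transgenic lungs, close to the pool in every mouse, with a difference of 0.03 (95% interval -0.19 to 0.25). This dim probe was well above background on 3 arrays of each genotype. Its difference was 0.08 (standard error 0.19) with an offset of 0 and 0.15 (standard error 0.24) with the processed signals, against a standard error of 0.10 as reported.

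All 8 Tnfaip genes had a mean below the pool, with a median log2 ratio of -0.51, and 5 of the 8 (Tnfaip1, Tnfaip2, Tnfaip8, Tnfaip8l1 and Tnfaip8l2) lay below it on all 8 arrays, as 20.4% of all tested probes did. With median-centring in place of loess 6 of the 8 were below it. The ligands had a median of -0.08 and the receptors of 0.09, and over all tested probes it was 0.01. Tnfrsf10b, Tnfrsf11b and Tnfrsf12a were the receptors below the pool in all mice, and Tnfrsf19, Tnfrsf26 and Tnfrsf9 were those above it in all mice with a value by their brightest probe. Other probes went the other way, since the second Tnfrsf19 probe lay below the pool in 6 of 8 mice, and a Tnfrsf9 probe that was well above background on 1 array, and was not tested, in all 8. The methods describe the pool as equal amounts of RNA from each sample, and the labels call it pooled whole mouse lung. Since the pool was in Cy3 on every array, a dye effect on a probe cannot be told apart from a difference between these lungs and the pool, and no test was made.

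**Figure D4:**
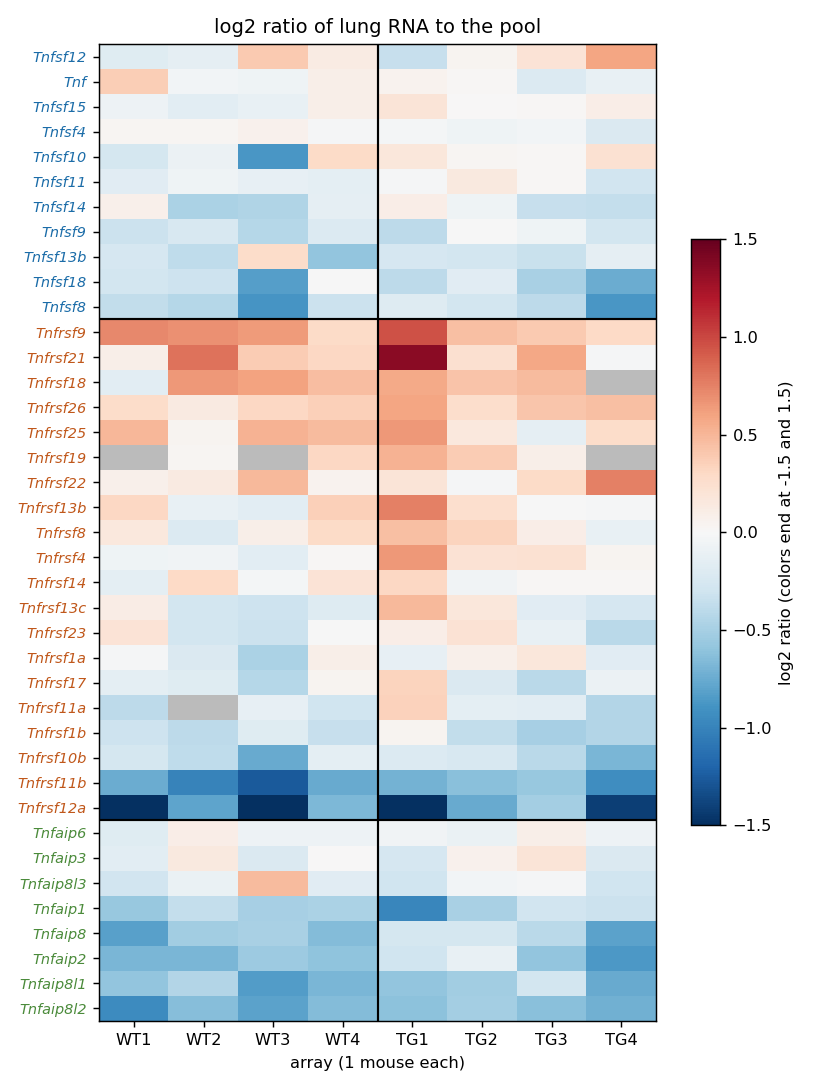
Log2 ratio of each lung to the pool for all 39 genes by their brightest probe, with 1 column per mouse (WT wild-type, TG transgenic), ligands above, receptors in the middle and Tnfaip genes below, ordered by mean ratio within each class. Gray cells are flagged spots without a value, blue is below and red above the pool, and the bottom block is blue in most cells of either genotype.

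The other genes of the pathway gave 2 differences past the unadjusted threshold and 0 past the adjusted. Of 69 further genes on the array (family members under other names, adaptors and death signaling, NF-kappaB and its regulators, and textbook TNF targets) 64 were tested, 42 had a higher and 22 a lower mean in transgenic lungs, and the counts of calls are by limma. Over all tested probes 50.4% had the higher mean, and 1.12% were higher and 0.962% lower at the unadjusted threshold. The 64 genes had a median difference of 0.04. The called genes, Ltb and Relb, were both higher in transgenic lungs. With the processed signals or the authors' matrix neither passed and Eda, the ligand ectodysplasin, did, with a difference of -0.36 (unadjusted p = 0.0388). With slide as a block Ltb and Ripk3, a kinase of necroptosis, passed, Ripk3 with a difference of 0.33 (unadjusted p = 0.0277). Ltb encodes lymphotoxin beta, a ligand of B and T cells that shapes lymphoid tissue, and its log2 ratios were -0.96, -0.75, -1.39 and -0.35 in the wild-type lungs and 0.42, -0.03, -0.46 and -0.88 in the transgenic lungs. The groups overlapped, transgenic replicate 1 was again the highest mouse, and the difference was 0.62 (standard error 0.27, unadjusted p = 0.0415 by limma). Without transgenic replicate 1 the difference of Ltb was 0.41 (unadjusted p = 0.124), and its unadjusted p rose to between 0.0553 and 0.126 on leaving out each of the mice whose removal took it over the threshold, namely wild-type replicate 1, wild-type replicate 2, wild-type replicate 3, transgenic replicate 1 and transgenic replicate 2. Relb encodes the NF-kappaB subunit of the noncanonical arm downstream of the lymphotoxin receptor. It had values of -0.39 and -0.37 in the 2 wild-type mice whose spots were not flagged and of -0.09, 0.04, -0.01 and -0.13 in the transgenic mice, with a difference of 0.33 (standard error 0.12, unadjusted p = 0.0224 by limma). Those wild-type mice, replicates 1 and 3, were both scanned on the first day, and the transgenic mice on either day. The difference of Relb was 0.27 with scan day as a block (unadjusted p = 0.0796 by limma), and with normexp fitted on all spots it was 0.15 (unadjusted p = 0.246). With the authors' matrix it was 0.17 (unadjusted p = 0.497 by limma).

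By group, 6 of 12 tested family members under other names, 14 of 21 adaptors and death genes, 13 of 17 NF-kappaB genes and 9 of 14 TNF targets had the higher mean in transgenic lungs, with medians of 0.00, 0.05, 0.07 and 0.02. Among the targets, Il1b differed by 0.11 (standard error 0.17, unadjusted p = 0.521 by limma) and Ccl2 by -0.11 (standard error 0.25, unadjusted p = 0.672 by limma), and Il6 was well above background on 0 arrays. The canonical NF-kappaB subunit gene Nfkb1 differed by 0.08 (standard error 0.11, unadjusted p = 0.48 by limma). These genes are named as the most familiar outputs and subunits, and they were chosen with their values known.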

How the data were processed

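Lung RNA of 4 wild-type and 4 transgenic mice was measured on 8 two-color Agilent 4x44K arrays, and samples were grouped by the genotype in their labels. For each array the authors deposited Agilent Feature Extraction output (10.10.1.1 in the file headers, 11.0.1.1 in the processing notes) with raw and processed intensities per channel and flags of the spots. The log10 ratios that the authors deposited there are processed Cy5 over processed Cy3, and the deposited matrix holds log2 ratios of the same signals. The labels name the miRNeasy kit and the paper's methods RNeasy, and the methods name GeneSpring and a t-test without adjustment. All 8 matrix columns were mapped, with 0 left out.

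Values were computed from the median signals and local backgrounds with limma 3.58.1 (R 4.3.3; tables were read with the data.table package). The background was corrected with normexp (offset 50, fitted per array and channel on unflagged spots that are no controls), log2 ratios of sample over pool were normalized by loess within each array (span 0.3), outlier-flagged spots were left out and spots of a probe averaged. Probes well above background in Cy5 on at least 4 arrays and with at least 2 values per genotype were tested (32645), by limma's moderated test of genotype, two-sided, with Benjamini-Hochberg adjustment over all of them. The labels do not say that the mice came from separate litters, so p-values measure the spread between these animals. Exact permutation of genotypes was run for single genes. A gene is given by its brightest probe, the level of one probe is not set against that of another, and symbols are those of the matrix. The members and gene lists, and the tests, were chosen with earlier results of these data known. Named are Tnf, Scgb3a2, the ligands and receptors of known pairs, the 6 members with the smallest p, the 4 with the largest spread, Tnfaip2, Tnfaip3, Tnfaip6 and Tnfaip8, and pathway or marker genes with an unadjusted p under 0.05. The fit was tested on simulated data. Alternatives changed the background correction, normalization, channel, filter, test, block or number of probes that stand for a gene. Others took the deposited matrix or dropped 1 mouse. Fits within each scan day and a day block on the matrix were added after seeing the data. Plots were made in matplotlib 3.10.9 under Python 3.11.15.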

Additional observations from a re-analysis of the deposited data

Results flagged for a closer look

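The 39 genes gave 74 groups of 4 mice with a value in each, and 2 of these held a mouse whose distance to the nearest other, as a share of the range, exceeded Dixon's 95% critical value, where chance flags about 1 in 20 groups. Tnfrsf25, the receptor of TL1A, was at a log2 ratio of 0.0377 in wild-type replicate 2, while the other wild-type mice lay between 0.47 and 0.53. Tnfsf4, the OX40 ligand, was at -0.215 in transgenic replicate 4 and between -0.06 and -0.03 in the other transgenic mice, with a probe that was well above background on 0 arrays.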

How the results depend on the processing

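Over the alternatives run, 0 members, pathway genes or probes passed the adjusted threshold, and the difference of Tnf stayed negative, from -0.23 to -0.05. The count of members with an unadjusted p under 0.05, 1 as reported, was 0 with median-centring and on the second scan day alone, 2 in the slide-blocked fit, and 3 (Tnfrsf4, Tnfrsf11b and Tnfrsf26) with the processed signals, with the authors' matrix, and with the scan day as a block on that matrix. With each mouse left out it was 1 to 3, the 2 without wild-type replicate 4 and the 3 without transgenic replicate 4. Over all probes the count of 679 became 298 with the Cy5 channel alone, 390 with normexp fitted on all spots, 1209 with the slide as a block, 1020 with the scan day as a block on the matrix and 1363 on the second scan day alone, and 481 to 1174 with each mouse left out (1174 without wild-type replicate 4, 1076 without transgenic replicate 1, 1037 without transgenic replicate 4). The pathway count of 2 became 1 with an offset of 0, the processed signals, median-centring, the Cy5 channel alone, the matrix and the methods' t-test (Eda, lower, with the processed signals and the matrix, and Ltb or Relb, higher, in the others), and 0 with normexp fitted on all spots and on the first scan day alone. With each mouse left out the pathway count was 0 to 4, with 0 without wild-type replicate 1 or 3 or transgenic replicate 2, 1 without wild-type replicate 2 or transgenic replicate 1, and 4 without transgenic replicate 4. Leaving out wild-type replicate 1 or 3 took Relb out of the test, since these mice held its 2 wild-type values. The causes of the other changes were not tested. The scan-day fits used 2 arrays a group and were added after seeing the data. Replicate numbers did not pair the mice throughout. Correlations of the deviations of same-numbered mice were 0.32 and 0.25 for numbers 1 and 2, whose mice shared a slide. They were -0.08 and -0.21 for numbers 3 and 4, whose mice were on different slides and scan days. Correlations by slide were not computed for numbers 3 and 4. In the fit that took the replicate number as a block the counts were 1 member, 880 probes and 2 pathway genes, and Tnf stayed at -0.15. For 36 members apart from Tnf, 821 values were computed, of which 714 kept their direction and side of the threshold, 3 lost and 11 gained an unadjusted p under 0.05, 93 changed sign with neither value past the threshold and 0 reversed past it.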
